A study of Homo sapiens with 6 samples.

Results

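Hep3B is a human hepatocellular carcinoma cell line, and its RNA was sequenced in 6 libraries, 3 from control cells and 3 labelled PELP1-KD. Among the 23228 genes of the deposited tables, 211 were named long noncoding RNA genes. They were taken by symbol alone, as numbered LINC or NCRNA genes, snoRNA hosts (SNHG), microRNA hosts (MIR with the ending HG), genes with the ending -AS1, and MALAT1, NEAT1, GAS5 and TUG1. Both groups were grown in RPMI and carried lentiviral shRNA under puromycin selection, and clones were pooled within a group. The control cells held a non-targeted shRNA. For the knockdown the labels describe 2 shRNAs against PELP1, while the sample titles give the first. PELP1 is a coregulator of nuclear receptors and part of a complex needed for maturation of the large ribosomal subunit.

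Long noncoding RNAs are transcripts that are spliced, capped and often polyadenylated like messenger RNAs but are not known mainly for a protein. Some stay in the nucleus, where NEAT1 builds paraspeckles and MALAT1 gathers in speckles. Others act as carriers. The introns of snoRNA host genes hold the small nucleolar RNAs that guide modification and processing of ribosomal RNA, and the microRNA hosts are cut to release microRNAs. Antisense genes are transcribed from the strand opposite a coding gene, often near its promoter, and CDKN2B-AS1 (ANRIL) is known for silencing of the CDKN2A/CDKN2B locus. The spliced transcripts of several snoRNA hosts, GAS5 among them, start with a pyrimidine tract like ribosomal protein messenger RNAs and are turned over by nonsense-mediated decay.

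The libraries held 26758363 to 34456542 reads on genes. Messenger RNA of PELP1 itself stood at 4893, 4914 and 5102 normalized reads (reads scaled to a common library size) in control and at 4421, 4825 and 4840 in the libraries labelled PELP1-KD. The 3 libraries were below every control, at 94.5% of the control mean, with a log2 fold change of −0.08 (SE 0.04) that missed the threshold (edgeR quasi-likelihood test, adjusted p = 0.101). Blocking on the replicate number gave an adjusted p of 0.0106, and without PELP1-KD replicate 3 it was 0.0179. An exact two-sided permutation test gave p = 0.1, the smallest that 3 against 3 libraries allow. Higher and lower below are therefore directions between labels. The paper reports lower PELP1 protein in Hep3B knockdown cells by Western blot, and protein is not measured by these libraries. All 9 hepatocyte markers averaged at least 1 RPKM (reads per kilobase of exon, scaled to sequencing depth), with ALB at the top, and their sum went from 10817–11007 RPKM in control to 9693–9823 RPKM in PELP1-KD. The endothelial markers CDH5, VWF and KDR and the leukocyte markers PTPRC and CD3E were below 0.05 RPKM. The summed fibroblast and stellate markers, of which 1 of 5 reached 1 RPKM, went from 5.82–5.96 RPKM in control to 7.56–8.01 RPKM in PELP1-KD, and the summed leukocyte markers, led by CD68, from 25.1–28.2 to 33.4–35.9 RPKM. The part of these markers in the results was not tested.

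Most of the named long noncoding RNA genes were silent or close to it. Of the 211, 66 had no read in any library, 73 had reads but too few to test (a median of 11 and at most 54 over all 6 libraries), and 72 were tested. The tested share was 34.1% of these genes against 62.6% of all genes. The tested genes had a median level of 1.23 RPKM, against 7.93 RPKM over all tested genes, and ranged from 0.0796 to 149 RPKM. The sum of the 211 genes took 0.163%, 0.164% and 0.162% of the reads in control and 0.182%, 0.178% and 0.172% in PELP1-KD, so that every PELP1-KD library was above every control. MALAT1 alone went from 0.0180%, 0.0177% and 0.0174% to 0.0289%, 0.0260% and 0.0211%. The sum thus follows a few abundant genes and does not describe the class gene by gene.

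In PELP1-KD, 19 of the 72 tested genes rose and 8 fell (edgeR quasi-likelihood test, adjusted p below 0.05 over all tested genes). That is 37.5% called, where 53.6% of all 14537 tested genes were called, 26.8% higher and 26.7% lower. The share called differed by abundance. Among the 36 tested whose mean was 100 normalized reads or more, 20 were called, or 55.6%, beside 56.6% of all genes above that level. Changes were small. The called genes rose by 0.12 to 1.56 and fell by 0.08 to 0.90 on the log2 scale. The genes at 1.56 and 0.90, NCRNA00252 and NCRNA00324, had few reads and passed the filter on low counts only through their higher group. The median over the 72 was 0.06, against 0.0045 over all tested genes. HOXA11-AS1 and NCRNA00252 were past 2-fold, both higher, while across all genes 7.64% were called past 2-fold, 2.85% higher and 4.79% lower. In the lower direction edgeR called 0 past 2-fold, also at an unadjusted p under 0.05, and DESeq2 called 0. The 3 PELP1-KD libraries lay entirely on one side of the 3 controls in 34 of the 72 tested genes, beside 58.8% of all tested genes, and the 27 called genes were among the 34. The count of lower calls fell to 4 without control replicate 3 and to 5 without PELP1-KD replicate 2. The count past 2-fold higher grew to 4 without PELP1-KD replicate 2.

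**Figure D1:**
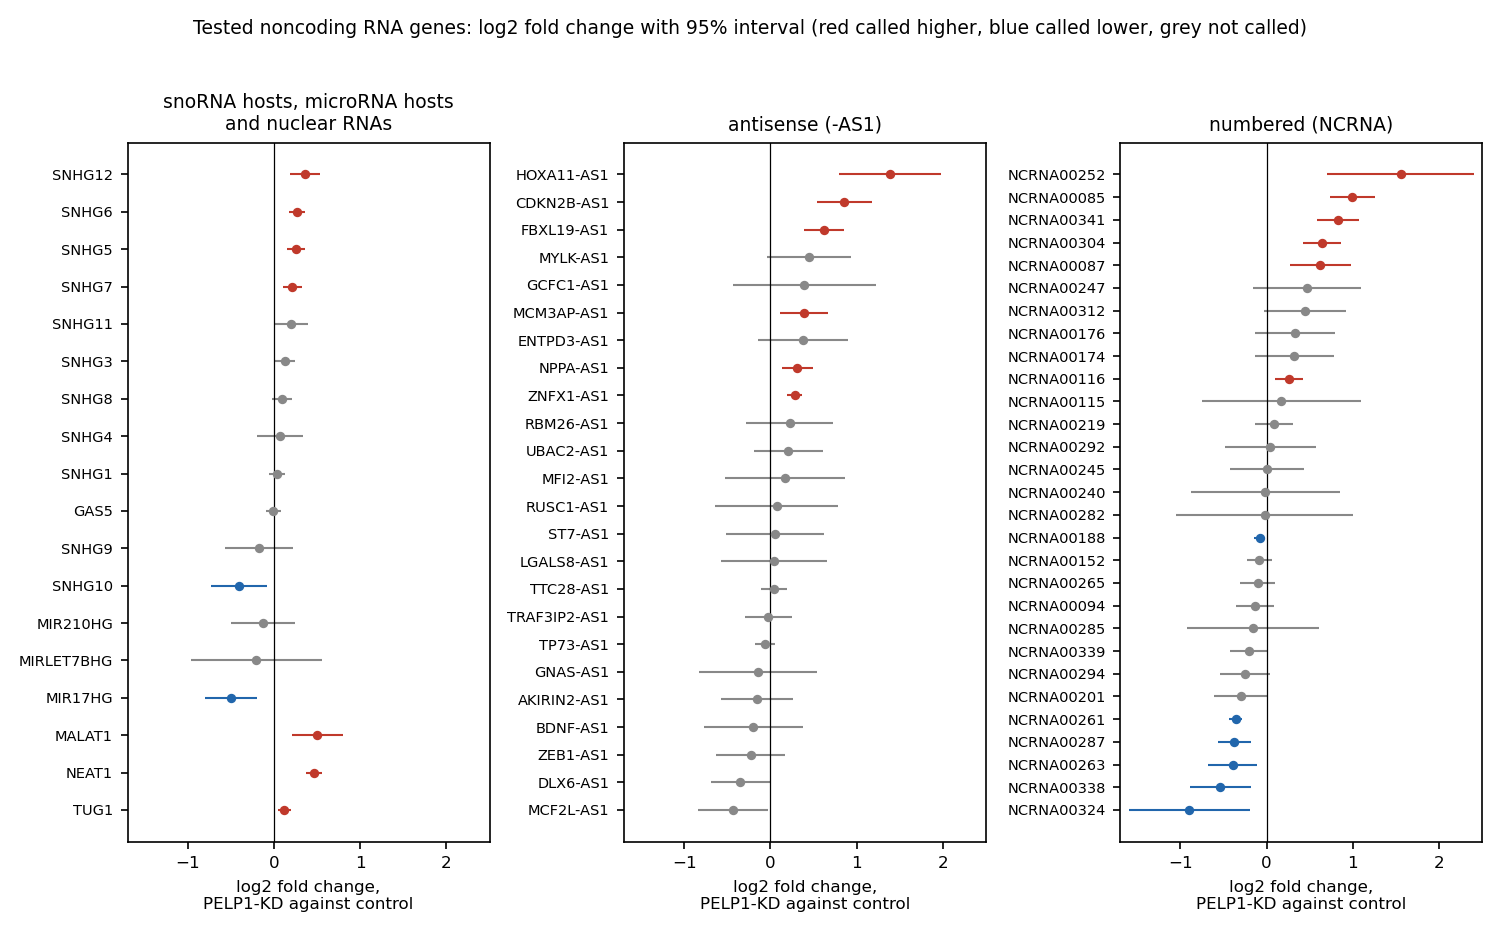
Log2 fold change (PELP1-KD against control, horizontal axis) of the tested genes with 95% intervals (1 antisense gene that was not called is left out), in panels for snoRNA hosts, microRNA hosts and nuclear RNAs, antisense genes and numbered genes. Red points are the 19 genes called higher, blue points the 8 called lower and grey points those not called. In the antisense panel 6 genes are red and the rest grey, whereas in the numbered panel 6 are red and 6 blue.

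**Figure D2:**
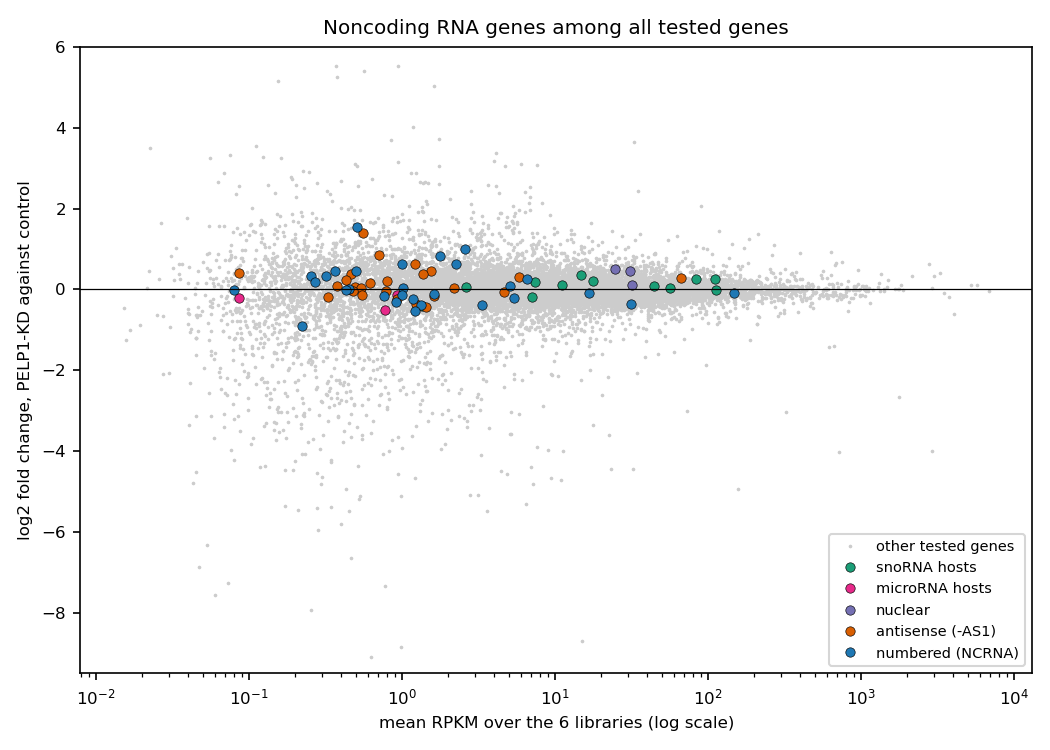
Log2 fold change (vertical axis) against mean RPKM over the 6 libraries (horizontal axis, log scale) for all 14537 tested genes in grey, with the 72 tested long noncoding RNA genes in colour by class. The snoRNA hosts and nuclear RNAs, with medians of 16.3 and 31.0 RPKM, lie between −0.40 and 0.50. The lower limit is SNHG10, a host of low abundance. The most abundant gene of the list, NCRNA00188, is in the numbered class. The 2 genes past 2-fold lie below 1 RPKM.

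MALAT1, NEAT1 and TUG1, one class here as nuclear RNAs, all rose. NEAT1, the scaffold of paraspeckles (chr11:65190269-65194003, hg19, plus strand), was the firmest of them. It had 2896, 3156 and 3141 normalized reads in control and 4049, 4330 and 4270 in PELP1-KD, a log2 fold change of 0.46 (SE 0.04, adjusted p = 2.8e-08), and it stayed called without any single library. The groups were far apart. The tables count NEAT1 over 3735 bases, the length of its short form, so the long form that builds paraspeckles is measured only in the stretch the forms share.

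MALAT1, which gathers in nuclear speckles, lies on the same chromosome (chr11:65265233-65273939, plus strand). It had 5683, 5575 and 5521 normalized reads in control and 8983, 8112 and 6656 in PELP1-KD, a log2 fold change of 0.50 (SE 0.12, adjusted p = 0.0163). The controls were nearly equal and the PELP1-KD libraries spread widely, with replicate 3 nearest to control. The call was lost with the replicate block (adjusted p = 0.063) and without any 1 of the controls (adjusted p of 0.0581 to 0.079), and DESeq2 kept it (adjusted p = 0.00026). Per length, MALAT1 stood at 20.4 ± 0.3 RPKM in control (SD, n = 3) and 28.9 ± 4.3 RPKM in PELP1-KD, close to NEAT1 at 26.1 ± 1.2 and 35.9 ± 1.3 RPKM.

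TUG1, a mostly nuclear transcript of chromosome 22 now annotated as protein coding by RefSeq, had 7011, 6879 and 6684 normalized reads in control and 7614, 7536 and 7157 in PELP1-KD. The log2 fold change was 0.12 (SE 0.04, adjusted p = 0.0111), and without PELP1-KD replicate 2 it was no longer called (adjusted p = 0.0616).

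Genes for the proteins of these nuclear bodies moved in both directions, all by less than 2-fold, and their counts stand beside the 53.6% called of all tested genes. Of 12 paraspeckle protein genes 2 rose and 7 fell, with a median log2 fold change of −0.14. NONO, a core paraspeckle protein, rose by 0.34 (SE 0.03, adjusted p = 1.15e-08). RBM14, another protein of these bodies, had the lowest log2 fold change of the list, −0.30 (SE 0.04, adjusted p = 5.21e-06). Of 5 nuclear speckle genes 1 rose and 3 fell, among them the splicing factor SRSF2 with a log2 fold change of −0.36 (SE 0.03, adjusted p = 6.91e-09). ELAC2 and METTL16, which act on or bind the 3′ end of MALAT1, were not called (log2 fold changes of −0.08 and 0.02).

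The snoRNA hosts, GAS5 and the genes of SNHG symbol, were 12 genes, all tested, with a median of 16.3 RPKM. SNHG5, SNHG6, SNHG7 and SNHG12 rose and SNHG10 fell, or 41.7% called beside 53.6% of all tested genes. The median log2 fold change of the hosts was 0.11. Their starts are shown because the pyrimidine tract at the start of such transcripts is the feature they are known for. Each line gives 10 bases before and 30 bases from the start of the gene in the tables, 5′ to 3′ on the gene's strand in hg19. Capitals mark the longest unbroken run of C and T that begins with C near the start, within the printed bases only. The runs of SNHG7 and NCRNA00188 open their lines, so they may be cut short, and both end before the annotated start. The promoter of SNHG7 printed further below shows that its run is longer. The line of SNHG12 opens on the last bases of another long run of C and T, which its promoter below shows. Only the bases within the line were scored.
GAS5 (chr1:173837096-173837135, minus): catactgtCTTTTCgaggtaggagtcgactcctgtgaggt
SNHG8 (chr4:119199907-119199946, plus): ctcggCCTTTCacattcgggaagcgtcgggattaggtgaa
SNHG5 (chr6:86388422-86388461, minus): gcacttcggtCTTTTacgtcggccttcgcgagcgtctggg
SNHG7 (chr9:139622607-139622646, minus): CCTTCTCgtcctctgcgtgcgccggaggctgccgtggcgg
NCRNA00188, now SNHG29 (chr17:16342291-16342330, plus): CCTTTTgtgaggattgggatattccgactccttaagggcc
SNHG1 (chr11:62623331-62623370, minus): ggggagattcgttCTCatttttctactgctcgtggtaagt
SNHG12 (chr1:28908337-28908376, minus): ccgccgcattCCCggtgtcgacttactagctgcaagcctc
Of 13 host genes read this way, 6 had a run of at least 5 bases, beside 29.4% of 13245 tested genes. Among the hosts with such a run, SNHG5 and SNHG7 rose, NCRNA00188 fell, and GAS5, SNHG8 and SNHG11 were not called. Among those without it in the bases read, SNHG12 and ZNFX1-AS1 rose, SNHG10 fell, and SNHG1, SNHG3, SNHG4 and SNHG9 were not called. SNHG12 is placed here although a longer run, cut by the window, ends before its annotated start. The start of SNHG6 was not read here. The annotated start can differ from the base where transcription begins.

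SNHG12, with 4 small RNA genes inside it (SNORD99, SNORA61, SNORA44 and SNORA16A), changed most among the called hosts that rose. It had 292, 314 and 300.5 normalized reads in control and 371, 365 and 425 in PELP1-KD, a log2 fold change of 0.36 (SE 0.08, adjusted p = 0.00105). SNHG5, host of SNORD50A and SNORD50B, had 1264, 1216 and 1179 normalized reads in control and 1377, 1524 and 1464 in PELP1-KD (log2 fold change 0.25, SE 0.05, adjusted p = 0.000372). In both genes the groups did not overlap.

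SNHG6, host of SNORD87, had 1558, 1464 and 1490 normalized reads in control and 1813, 1806 and 1792 in PELP1-KD (log2 fold change 0.26, SE 0.05, adjusted p = 6.56e-05). SNHG7 had 1447, 1314 and 1412 normalized reads in control and 1570, 1530 and 1731 in PELP1-KD (log2 fold change 0.21, SE 0.05, adjusted p = 0.00284). All 4 hosts stayed called without any single library and with the replicate block.

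SNHG10, a host of low abundance at 1.54 ± 0.22 RPKM in control (SD, n = 3), fell. Its normalized reads were 79.8, 104 and 102 in control and 70.6, 78.2 and 66.9 in PELP1-KD, a log2 fold change of −0.40 (SE 0.16, adjusted p = 0.0352). Control replicate 1 was within 2 reads of the highest PELP1-KD library. The call was lost without 4 of the 6 libraries in turn (adjusted p up to 0.132, without control replicate 2) and with DESeq2 (adjusted p = 0.119), and 275 of its exon bases are shared with SCARNA13.

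The other 7 hosts were not called. GAS5, the growth arrest transcript, had 2265, 2214 and 2289 normalized reads in control and 2296, 2211 and 2217 in PELP1-KD. Its groups were interleaved, and the 95% interval of its log2 fold change ran from −0.10 to 0.08. SNHG1 had a log2 fold change of 0.04 with an interval of −0.05 to 0.13. SNHG8 was at 0.09 with an interval of −0.03 to 0.20. SNHG3 missed the threshold at 0.12 (SE 0.06, adjusted p = 0.0876), passed it with the replicate block (adjusted p = 0.0327) and without PELP1-KD replicate 3 (adjusted p = 0.0313), and shares 251 exon bases with RCC1 on its strand. SNHG11 was at 0.19 (SE 0.09, adjusted p = 0.0917), and it was called without PELP1-KD replicate 1 (adjusted p = 0.0201). SNHG4, which shares 601 of its 1546 exon bases with MATR3, was at 0.07 and SNHG9 at −0.18. By level, GAS5 (114 ± 1.9 RPKM in control, SD, n = 3) and SNHG6 (101 ± 3.3 RPKM) led the class, followed by SNHG5 (76.6 ± 2.7 RPKM) and SNHG1 (56.0 ± 1.3 RPKM).

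Under present RefSeq names, 4 further members are snoRNA hosts. ZNFX1-AS1 (ZFAS1) rose, NCRNA00188 (SNHG29) and NCRNA00338 (SNHG20) fell, and NCRNA00219 (EPB41L4A-AS1) was at 0.09 (SE 0.10, adjusted p = 0.505). With these, 5 of 16 hosts rose, 3 fell and 8 were not called, which is 50.0% called beside 53.6% of all tested genes. The median log2 fold change of the 16 was 0.09. NCRNA00188 was the most abundant of all the long noncoding RNA genes, at 153 ± 3.1 RPKM in control and 144 ± 0.84 RPKM in PELP1-KD (SD, n = 3). Its log2 fold change was −0.08 (SE 0.03, adjusted p = 0.0378), and the call was lost without 5 of the 6 libraries in turn (adjusted p up to 0.179, without control replicate 2). NCRNA00338 had 87.1, 95.8 and 113 normalized reads in control and 52.2, 78.2 and 73.9 in PELP1-KD, a log2 fold change of −0.54 (SE 0.17, adjusted p = 0.0121, up to 0.0751 without a library), and 530 of its exon bases are shared with SEC14L1.

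The small RNAs inside the hosts were counted only as fragments in these libraries, which were not made for small RNA. Those given below as risen or fallen are all that were called, beside 53.6% called of all tested genes. The other tested small RNAs inside the hosts were not called, those of SNHG5, SNHG6, ZNFX1-AS1 and NCRNA00188 among them. The 10 snoRNA genes within GAS5 had 667, 588 and 649 reads in control and 650, 576 and 623 in PELP1-KD. The sums were alike, but of these snoRNAs SNORD76 (log2 fold change 0.46, adjusted p = 0.00739) and SNORD78 (0.79, adjusted p = 0.0294) rose. SNORD77 fell (−1.11, adjusted p = 0.0292), with 23, 14 and 12 reads in control and 8, 7 and 5 in PELP1-KD. It passed the filter on low counts only through the control libraries, where it was higher, so its adjusted p gives no independent support. The 8 within SNHG1 had 525, 521 and 558 against 544, 461 and 536 reads, and SNORD28 among them rose (log2 fold change 0.50, adjusted p = 0.0414). The 4 within SNHG12 had 114, 106 and 102 reads in control and 151, 127 and 170 in PELP1-KD, in the direction of their host and although the PELP1-KD libraries were smaller, and SNORA61 (log2 fold change 0.40, adjusted p = 0.0431) and SNORA16A (1.13, adjusted p = 0.00202) rose. The 2 within SNHG7 lie in its exons and had 42, 30 and 56 against 66, 50 and 75 reads. SNORA17 was at 0.54 on the log2 scale (SE 0.23, adjusted p = 0.0561). SNORA43 rose by 1.38 (SE 0.38, adjusted p = 0.00456), from 9, 4 and 10 reads in control to 18, 15 and 21 in PELP1-KD. It passed the filter on low counts only through the PELP1-KD libraries, where it was high, so its adjusted p gives no independent support. Reads of SNORA43 and SNORA17 are shared with SNHG7 in the counting and cannot be told apart from it.

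The promoters of SNHG5, SNHG7 and SNHG12 are shown because these genes rose together. They run from 250 bases before to 50 bases after the RefSeq start, in build GRCh38.p14, 5′ to 3′ on the gene's strand, and matches to CACGTG (the E-box bound by MYC and other factors), CCAAT and TATAAA on either strand stand in capitals.
SNHG5 (chr6:85678684-85678983, minus): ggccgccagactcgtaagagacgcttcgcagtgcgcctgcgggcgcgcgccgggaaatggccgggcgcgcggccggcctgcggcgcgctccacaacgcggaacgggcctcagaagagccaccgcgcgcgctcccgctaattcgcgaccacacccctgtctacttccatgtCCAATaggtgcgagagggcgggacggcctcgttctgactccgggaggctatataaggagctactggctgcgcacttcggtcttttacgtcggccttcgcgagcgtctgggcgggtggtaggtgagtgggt
SNHG7 (chr9:136728135-136728434, minus): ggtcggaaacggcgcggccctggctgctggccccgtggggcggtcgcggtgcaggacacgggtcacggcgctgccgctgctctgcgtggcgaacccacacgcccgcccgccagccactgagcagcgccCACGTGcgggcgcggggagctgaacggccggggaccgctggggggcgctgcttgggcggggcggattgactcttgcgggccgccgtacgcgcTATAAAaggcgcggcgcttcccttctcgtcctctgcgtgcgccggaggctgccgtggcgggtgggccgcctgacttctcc
SNHG12 (chr1:28581824-28582123, minus): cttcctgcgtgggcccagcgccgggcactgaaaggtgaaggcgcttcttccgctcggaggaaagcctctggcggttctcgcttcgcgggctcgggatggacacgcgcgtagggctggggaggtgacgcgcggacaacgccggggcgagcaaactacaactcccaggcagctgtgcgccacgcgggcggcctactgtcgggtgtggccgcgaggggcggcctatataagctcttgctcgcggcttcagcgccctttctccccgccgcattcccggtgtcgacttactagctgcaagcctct
SNHG7 holds CACGTG and TATAAA, SNHG5 holds CCAAT, and the letters of the 3 motifs are not in the SNHG12 window. Only these exact letters were searched. SNHG5 and SNHG12 both hold tatataag, a close variant of TATAAA that the search does not mark. Over the 57 tested members with a promoter in the RefSeq table, CACGTG was in 5.26%, CCAAT in 35.1% and TATAAA in 7.02%, beside 7.43%, 35.7% and 12.0% of all 27305 promoters of that length.

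Of the proteins that bind snoRNAs or assemble snoRNA particles, 6 of 14 genes fell, with a median log2 fold change of −0.09 over the list, and the rest were not called. Of 10 nonsense-mediated decay genes 4 rose and 1 fell. SMG5, which recruits the machinery that removes the phosphates of UPF1 and degrades the transcript, rose by 0.23 (SE 0.04, adjusted p = 2.04e-05). Of 16 genes for the nuclear exosome and its adaptors 6 rose and 1 fell, and the exosome nuclease DIS3 rose by 0.29 (SE 0.05, adjusted p = 6.76e-05). Over all 69 genes of these lists 14 rose and 21 fell, which is 50.7% called, beside 53.6% of all tested genes.

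Among 7 microRNA host genes, MIR17HG fell and 2 others could be tested. MIR17HG carries the miR-17-92 cluster, a target of MYC. It had 138, 162 and 131 normalized reads in control and 123, 95.7 and 85.9 in PELP1-KD, a log2 fold change of −0.50 (SE 0.14, adjusted p = 0.00669, up to 0.0493 without a library). Every PELP1-KD library was below every control, replicate 1 by the smallest step. The 6 microRNA genes inside this host give mature microRNAs with few distinct seeds, shown because the seed sets which messenger RNAs they pair with. They are printed from RefSeq (GRCh38.p14), 5′ to 3′, with the seed (bases 2 to 8) in capitals, and those that share a seed stand together.
hsa-miR-17-5p: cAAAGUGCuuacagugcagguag
hsa-miR-20a-5p: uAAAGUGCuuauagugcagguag
hsa-miR-18a-5p: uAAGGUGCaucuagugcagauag
hsa-miR-19a-3p: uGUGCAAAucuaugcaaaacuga
hsa-miR-19b-3p: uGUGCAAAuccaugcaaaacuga
hsa-miR-92a-3p: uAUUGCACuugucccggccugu
These 6 genes had 2, 3 and 8 reads in control and 0, 0 and 0 in PELP1-KD, and mature microRNAs were not measured. All 6 lie in exons of MIR17HG on its strand, so their reads are shared with MIR17HG in the counting and cannot be told apart from it. MIR210HG was at −0.13 (SE 0.18, adjusted p = 0.563) and MIRLET7BHG at −0.21 (SE 0.36, adjusted p = 0.654). NCRNA00287, which RefSeq now names MIR600HG, belongs here by its function. It had 281, 283 and 294 normalized reads in control and 246, 208 and 206 in PELP1-KD, a log2 fold change of −0.38 (SE 0.09, adjusted p = 0.00185), and its nearest tested gene, RABGAP1, was at −0.03 (adjusted p = 0.668).
hsa-miR-600: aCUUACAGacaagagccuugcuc
Of 10 genes for microRNA processing 1 rose and 3 fell, or 40.0% called beside 53.6% of all tested genes. XPO5, which exports precursor hairpins from the nucleus, had a log2 fold change of −0.48 (SE 0.04, adjusted p = 1.75e-08).

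**Figure D3:**
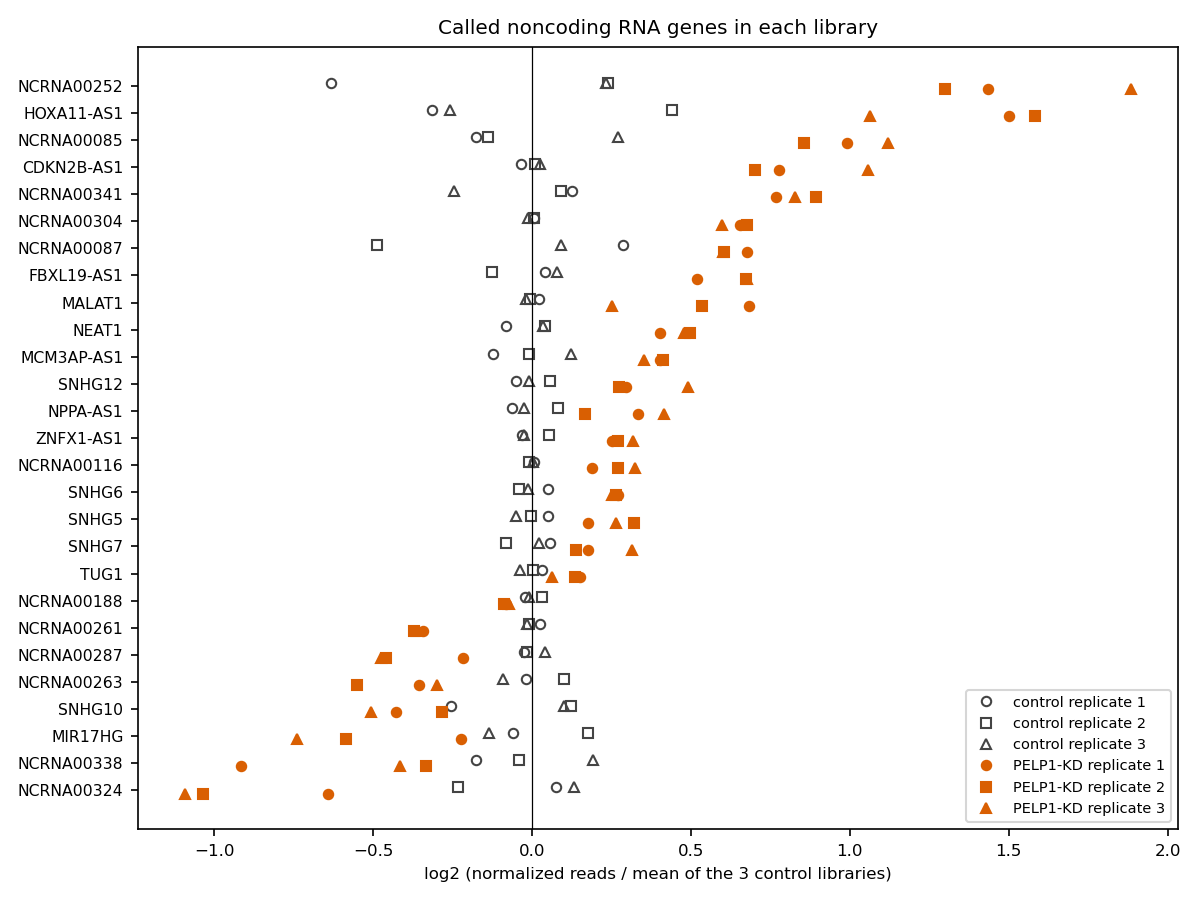
Normalized reads of the 27 called genes in each library, as log2 of the ratio to the mean of the 3 controls (horizontal axis). Open symbols are control and filled symbols PELP1-KD, with the symbol shape giving the replicate. The filled symbols lie on one side of the open ones in every row, narrowly so for SNHG10, TUG1 and NCRNA00188.

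Of 70 antisense genes 25 could be tested, and 6 rose. That is 24.0% called, beside 53.6% of all tested genes, of which 26.8% were called higher. Among the 7 with a mean of 100 normalized reads or more, 4 were called, or 57.1%, beside 56.6% of all genes at that level. In the lower direction edgeR called 0 of the 25, with 2 at an unadjusted p under 0.05, and DESeq2 called 0. The 19 that were not called ran from −0.43 to 0.45. Antisense genes were low, with a median of 0.79 RPKM.

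ZNFX1-AS1 was by far the most abundant of them (60.8 ± 2.0 RPKM in control, SD, n = 3). It starts 41 bases from the start of ZNFX1, a helicase gene on the other strand. It had 1921, 2039 and 1931 normalized reads in control and 2338, 2368 and 2448 in PELP1-KD, a log2 fold change of 0.28 (SE 0.04, adjusted p = 1.74e-05). ZNFX1 rose as well, with 1481, 1540 and 1532 against 2124, 1968 and 2105 normalized reads (log2 fold change 0.45, SE 0.05, adjusted p = 1.04e-07).

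CDKN2B-AS1 lies on the plus strand of chromosome 9 (chr9:21994790-22121093) and spans CDKN2B, the gene of the cell cycle inhibitor p15. It had 59.6, 61.3 and 62.0 normalized reads in control and 104, 99.2 and 127 in PELP1-KD, a log2 fold change of 0.86 (SE 0.15, adjusted p = 8.72e-05). CDKN2B rose too, from 1623, 1562 and 1599 to 4277, 4349 and 4320 normalized reads (log2 fold change 1.44, SE 0.04, adjusted p = 2.3e-16). CDKN2A, the neighbour that encodes p16 and p14ARF, rose by 0.33 (SE 0.04, adjusted p = 2.08e-06). All 3 genes of the locus were thus higher in each PELP1-KD library than in each control.

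HOXA11-AS1, chosen for mention after its values were seen, starts 192 bases from HOXA11, a homeobox gene. It had 11.9, 20.1 and 12.4 normalized reads in control and 42.0, 44.3 and 31.0 in PELP1-KD, a log2 fold change of 1.39 (SE 0.28, adjusted p = 0.00037). HOXA11 had 135, 138 and 119 against 231, 230 and 245 normalized reads (log2 fold change 0.85, SE 0.10, adjusted p = 9.07e-07). Both rose, from low levels.

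In 2 pairs the antisense gene rose and its partner fell. FBXL19-AS1 had 123, 109 and 126 normalized reads in control and 171, 190 and 191 in PELP1-KD (log2 fold change 0.62, SE 0.11, adjusted p = 0.000108), and FBXL19, a CpG-binding F-box gene whose start is 1306 bases away, had a log2 fold change of −0.26 (SE 0.06, adjusted p = 0.00121). MCM3AP-AS1 had 79.8, 86.3 and 94.4 normalized reads in control and 115, 116 and 111 in PELP1-KD (log2 fold change 0.39, SE 0.13, adjusted p = 0.0203). Its partner MCM3AP, which encodes the messenger RNA export factor GANP, was at −0.22 (SE 0.04, adjusted p = 0.000245). MCM3AP-AS1 was no longer called with DESeq2 (adjusted p = 0.0964) or without control replicate 1, control replicate 2 or PELP1-KD replicate 2 (adjusted p of 0.0515 to 0.0871).

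NPPA-AS1 had 262, 289 and 269 normalized reads in control and 345, 307 and 365 in PELP1-KD (log2 fold change 0.31, SE 0.09, adjusted p = 0.00483). Its partner NPPA, a heart natriuretic peptide gene, had too few reads to test. However, 889 of the 1662 exon bases of NPPA-AS1 are shared with CLCN6 on the same strand, which rose by 0.17 (SE 0.06, adjusted p = 0.0211). Reads in the shared bases cannot be assigned to one of them. TP73-AS1, among the 3 most abundant, was at −0.06 (SE 0.06, adjusted p = 0.366), and TP73 was at −0.20 (adjusted p = 0.168).

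Both genes were tested in 23 pairs, of which the tables list AKIRIN2-AS1 and AKIRIN2 on the same strand. Among the partners 9 rose and 10 fell. In 5 pairs both genes were called, 3 with both higher and 2 with the antisense gene higher and the partner lower. The antisense gene was lower per length than its partner in 20 of 23 pairs, with a median ratio of 9.32 in RPKM. The log2 fold changes of the 23 pairs had Pearson's r of 0.61 and Spearman's rho of 0.50, which is a description over genes measured in the same libraries. Without CDKN2B-AS1 and HOXA11-AS1 Pearson's r was 0.29. Several partners changed while their antisense gene did not pass the test. TRAF3IP2 rose by 0.86 (adjusted p = 6.91e-07), with TRAF3IP2-AS1 at −0.03. ZEB1, a repressor of epithelial genes, was at −0.63 (adjusted p = 4.3e-06), with ZEB1-AS1 at −0.23. UBAC2 was at −0.44 (adjusted p = 6.77e-07), with UBAC2-AS1 at 0.21. Over all 53 tested partners, those of untested antisense genes included, 18 rose and 21 fell, beside the 53.6% called of all tested genes.

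**Figure D4:**
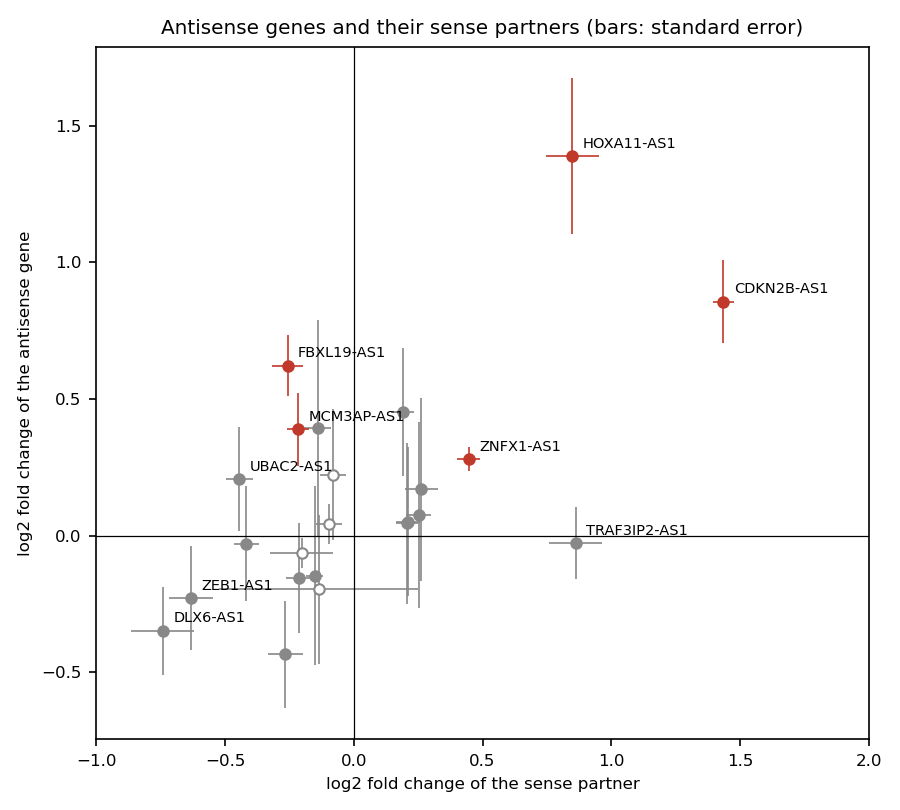
Log2 fold change of 23 antisense genes (vertical axis) against that of their sense partners (horizontal axis), with standard errors as bars. Red points are antisense genes called higher and grey points those not called, and open symbols mark partners not called. HOXA11-AS1 and CDKN2B-AS1 stand at the upper right, while FBXL19-AS1 and MCM3AP-AS1 lie to the left of 0.

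Reads were assigned by strand. PCNA-AS1, whose 384 exon bases all lie opposite exons of PCNA, had 10 reads over the 6 libraries and PCNA had 36760, and PEG3-AS1 had 0 reads where PEG3 had 1478. The partners of some silent antisense genes moved far, among them A1BG (log2 fold change −5.07), PEG3 (−3.99) and CYP1B1 (3.38).

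Of 119 numbered genes, all listed under the older NCRNA symbols, 29 were tested, 6 rose and 6 fell. That is 41.4% called, beside 53.6% of all tested genes. NCRNA00261 (LINC00261), a transcript of endoderm-derived tissues including liver, had the smallest p of the members that fell. It lies at chr20:22541192-22559280 on the minus strand, 2362 bases from FOXA2, a liver transcription factor gene. It had 5540, 5413 and 5388 normalized reads in control and 4294, 4209 and 4240 in PELP1-KD, a log2 fold change of −0.36 (SE 0.04, adjusted p = 6.57e-08). The groups were tight and well apart. FOXA2 had 2403, 2388 and 2581 against 2325, 2322 and 2437 normalized reads, a log2 fold change of −0.06 with a 95% interval of −0.15 to 0.04 (adjusted p = 0.292). Per length the 2 genes were alike in level in control, at 35.3 ± 0.53 and 29.9 ± 1.3 RPKM (SD, n = 3).

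NCRNA00263 (OLMALINC), known for a link to lipid genes, had 116, 127 and 111 normalized reads in control and 92.1, 80.5 and 95.9 in PELP1-KD (log2 fold change −0.39, SE 0.14, adjusted p = 0.02). Its neighbour SCD, the stearoyl-CoA desaturase, 8745 bases away, was at −0.15 (SE 0.03, adjusted p = 0.0002). The call of NCRNA00263 was lost with DESeq2 (adjusted p = 0.0811), without control replicate 2 (adjusted p = 0.0834) and without PELP1-KD replicate 2 (adjusted p = 0.0794). NCRNA00324 (LINC00324) had 20.2, 16.3 and 21.0 against 12.3, 9.33 and 8.99 normalized reads, the largest decrease of the called members. Its log2 fold change was −0.90 (SE 0.34, adjusted p = 0.0301, up to 0.0967 without a library and 0.142 with DESeq2). It passed the filter on low counts only through the control libraries, where it was higher, so its adjusted p gives no independent support. C17orf76, which overlaps NCRNA00188 on the opposite strand, fell as well, with 66.0, 59.4 and 55.3 against 19.5, 28.0 and 19.0 normalized reads (log2 fold change −1.45, SE 0.22, adjusted p = 1.81e-05).

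Some of the numbered genes that rose are no longer classed as noncoding. NCRNA00085, now SPACA6, a gene of sperm and egg fusion, had 95.3, 97.8 and 130 normalized reads in control and 214, 195 and 234 in PELP1-KD (log2 fold change 1.00, just under the 2-fold threshold, SE 0.13, adjusted p = 1.72e-06). NCRNA00341 falls under SYNE3, a nesprin gene of the nuclear envelope, and had 125, 122 and 96.3 against 195, 212 and 203 normalized reads (log2 fold change 0.83, SE 0.12, adjusted p = 6.49e-06). Its nearest tested gene, C14orf49, an older symbol of SYNE3 too, rose by 0.46 (SE 0.09, adjusted p = 0.000131). NCRNA00116, now MTLN, encodes a mitochondrial micropeptide and had 304, 301 and 303 against 345, 365 and 380 normalized reads (log2 fold change 0.26, SE 0.08, adjusted p = 0.00745). In all 3 the groups did not overlap. Of the 11 members with a protein-coding entry in RefSeq 7 were tested and 4 rose, and of the 188 with an entry as an RNA gene 61 were tested, 14 rose and 8 fell. That is 57.1% and 36.1% called, beside 53.6% of all tested genes. The tested genes of these sets also differed in level, with medians of 161 and 83.5 normalized reads.

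NCRNA00304 (LINC00304) varied little between replicates, with 125, 125 and 123 normalized reads in control and 196, 198 and 188 in PELP1-KD (log2 fold change 0.64, SE 0.10, adjusted p = 3.42e-05). NCRNA00087 had 85.3, 49.8 and 74.4 against 112, 106 and 106 normalized reads (log2 fold change 0.62, SE 0.17, adjusted p = 0.00425). The controls of NCRNA00087 varied and the PELP1-KD libraries did not. The nearest tested genes of NCRNA00085 (ZNF175), NCRNA00304 (ACSF3) and NCRNA00087 (FAM127B) were not called, with log2 fold changes of 0.11, −0.12 and 0.06.

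NCRNA00252 (SAMD12-AS1) had 4, 7 and 7 reads in control and 15, 12 and 21 in PELP1-KD, a log2 fold change of 1.56 (SE 0.41, adjusted p = 0.00318). It passed the filter on low counts only through the PELP1-KD libraries, where it was high, so its adjusted p gives no independent support. It overlaps SAMD12 on the opposite strand with starts 944 bases apart, and SAMD12 had 174, 167 and 155 against 375, 330 and 260 normalized reads (log2 fold change 0.96, SE 0.12, adjusted p = 1.01e-06). NCRNA00152 (CYTOR), the third most abundant numbered gene, was not called (log2 fold change −0.09, 95% interval −0.23 to 0.06, adjusted p = 0.319). Its nearest tested gene, PLGLB2, was at −1.02 (adjusted p = 0.0367) from 10.5 to 24.9 normalized reads in control, and it has a near-identical copy, which leaves its value uncertain.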

How the data were processed

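RNA-seq of Hep3B cells was analysed, grouped by the sample titles into 3 control and 3 PELP1-KD libraries. The authors deposited estimated counts per gene. The file headers give featureCounts v1.5.0-p1 on hg19 exons, by strand, with fractions for multiply mapped or overlapping reads (10.6 to 13.3% of values are not whole) and a mapping quality minimum of 2. The labels name HISAT2, whereas the paper's methods name TopHat2 and HTSeq. The sources also differ on the RNA extraction.

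Counts were rounded and fitted over all 23228 genes with edgeR 4.0.16 (R 4.3.3; glmQLFit with robust estimation, glmQLFTest, TMM, filterByExpr), with Benjamini-Hochberg adjustment over 14537 genes. The threshold was an adjusted p of 0.05. The median standard error of a log2 fold change was 0.063. Intervals use 95% and cover the spread between these libraries, which may be technical, since separate cultures are not stated. The fit was tested on simulated data. Alternatives were DESeq2 1.42.0, other size factors, other filters, a stricter threshold, each library left out and a replicate block. Same-numbered libraries deviated together (correlations of 0.34, 0.25 and 0.67 over 6370 genes). Control 2 with PELP1-KD 1 (0.42) and control 1 with PELP1-KD 2 (0.24) correlated as well, so the numbers may not pair replicates 1 and 2. The main fit was unpaired, and only the replicate block treats the numbers as pairs.

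The members and lists were chosen with earlier results of these data known. Named were the 4 single genes, all tested hosts, and, per antisense and numbered class, called genes without overlap whose higher group averaged 100 normalized reads or more (the 6 smallest p and the 4 largest changes in each direction), the 3 most abundant, their partners or nearest genes, low-read genes past 2-fold (the 4 smallest p) and 3 machinery genes a direction. HOXA11-AS1, NCRNA00324, NCRNA00338, NCRNA00219, CDKN2A, CLCN6, RBM14, the snoRNAs inside hosts and the partners of uncalled antisense genes were added after their values were seen. A few genes that this rule names are not reported here. RefSeq matched 205 of 211 symbols. Of the members' introns, 93.9% of 214 began with GT and ended with AG in GRCh37 at the deposited coordinates.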

Additional observations from a re-analysis of the deposited data

How the results depend on the processing

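Under other size factors the same 27 genes were called. DESeq2 kept 23 of them and called 5 lower in place of 8, losing NCRNA00263, SNHG10, NCRNA00324 and MCM3AP-AS1, and an adjusted p below 0.01 left 3 lower. Higher calls past 2-fold, 2 in the fit reported, were 4 with no filter on low counts, 1 with a minimum of 10 reads per library and 0 where either group had to average 1 RPKM, where fewer genes were tested. Leaving out 1 library at a time gave 17 to 20 higher and 4 to 9 lower calls, 2 to 4 past 2-fold higher and 0 to 1 past 2-fold lower. The median log2 fold change was then 0.06 to 0.12, and 19 of the 27 genes were called each time. The log2 fold change of PELP1 ranged from −0.105 to −0.040.

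With the replicate block PELP1 was at −0.083 (adjusted p = 0.0106), 19 members were higher and 9 lower, MALAT1 was lost, and SNHG3 and NCRNA00201 (−0.31, adjusted p = 0.0477) were gained. It changed no other call among the members. Over the named genes other than PELP1, 814 of the values recomputed under an alternative kept their direction and call, 36 lost a call and 4 gained one, and the sign of a called value did not turn in these. The cause of the differences was not tested. Counts limit the low genes most, with a median standard error of 0.15 among the tested members.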
